A study of Mus musculus with 2 samples.

Results

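Mt1, Mt2 and Mt3, the metallothionein genes, were followed by their Ensembl identifiers through 2 single-cell libraries of mouse retina, as 3 of the 32285 genes counted in each droplet. All 3 were detected, and no filter on low values removed one. They were chosen by values of these same libraries, the rise of Mt2 in rods after light damage among them, so every ratio of light damage to control given for them is a description of these libraries and no test.

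Metallothioneins are very small proteins rich in cysteine, whose thiol groups bind zinc and copper ions and react with oxidants. Mt1 and Mt2 are made in most tissues and are switched on by zinc through the transcription factor Mtf1, which binds short metal response elements in their promoters, and also by glucocorticoids, by cytokines acting through Stat3 and by oxidative stress. Mt3 was found in brain as a growth inhibitory factor and responds little to metals. In the eye they are known from the retinal pigment epithelium (RPE), the pigmented layer that serves the photoreceptors and is rich in zinc, and from Müller glia, the radial glial cells that span the retina.

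The control library came from mice kept for 18 h in the dark and never exposed, and the light damage library from mice that followed 18 h of darkness with 30 min of white light at 5000 lux and 6 h of recovery in dim light. Each came from whole retinae pooled from 3 to 5 mice aged 6 to 9 weeks, all labelled WT. By the methods of the study the mice carried 2 floxed alleles of Tgfbr2 as functional wild types, on a Balb-C/CD1 background homozygous for a variant of RPE65 that sets how fast the visual pigment is rebuilt. There was 1 pool and 1 library in each condition, so no spread between animals can be given, and each interval printed here is a 95% interval for counting error alone.

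The control files held 30605284 UMIs (unique molecular identifiers, each standing for 1 captured RNA molecule) and those of light damage 54413601, with 3669 and 5593 droplets kept. Unspliced UMIs made up 18.7% and 32.7% of them. Xist, the RNA of the inactive X chromosome, gave 4748 UMIs in the kept control droplets and 3 in those of the other library, so that the sex of the pooled mice and the light exposure cannot be told apart in any comparison below. The libraries shared 7 kept barcodes. Rod-like droplets were split by their share of unspliced UMIs into low-unspliced rods (under 20%; 2342 control and 1771 light damage droplets), an intermediate group (127 and 58) and high-unspliced rods (30% or more; 698 and 3098). The other named droplets were 168 and 93 cone-like, 156 and 293 RPE-like, 49 and 49 Müller-like, 12 and 39 microglia-like and 26 and 18 bipolar-like. Levels are given as CPM, that is the spliced and ambiguous UMIs of a gene for every 1000000 of its class. The barcodes with under 50 UMIs served as the measure of free RNA that leaks from broken cells into every droplet.

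The 3 genes lie side by side on the plus strand of chromosome 8 of GRCm38, in the order Mt3 (chr8:94152607-94154146), Mt2 (chr8:94172664-94173568) and Mt1 (chr8:94179082-94180327). The gap between Mt3 and Mt2 is 18517 bases and that between Mt2 and Mt1 is 5513 bases. The coding sequences are shown because the libraries counted Mt1 and Mt2 apart although the genes are close copies. They were read from the GENCODE vM21 annotation of GRCm38, and capitals mark the codons for cysteine, 20 in each gene.
Mt1 coding sequence: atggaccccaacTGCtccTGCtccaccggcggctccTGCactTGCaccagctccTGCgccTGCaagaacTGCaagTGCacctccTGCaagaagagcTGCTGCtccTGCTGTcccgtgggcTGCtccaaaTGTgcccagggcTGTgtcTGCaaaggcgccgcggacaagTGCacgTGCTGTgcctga
Mt2 coding sequence: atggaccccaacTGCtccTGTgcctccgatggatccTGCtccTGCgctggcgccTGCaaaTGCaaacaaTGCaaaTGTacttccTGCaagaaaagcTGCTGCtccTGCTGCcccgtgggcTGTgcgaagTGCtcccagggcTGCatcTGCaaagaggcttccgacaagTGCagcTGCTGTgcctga
Mt3 coding sequence: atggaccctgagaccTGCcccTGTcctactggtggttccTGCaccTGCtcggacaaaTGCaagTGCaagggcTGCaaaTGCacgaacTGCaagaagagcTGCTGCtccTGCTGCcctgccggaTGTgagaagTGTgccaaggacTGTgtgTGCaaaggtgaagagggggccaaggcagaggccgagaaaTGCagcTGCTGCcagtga
The coding sequences run over 186 bases in Mt1 and Mt2 and 207 bases in Mt3. Mt1 and Mt2 were identical at 79.6% of aligned coding bases, Mt1 and Mt3 at 66.2%, and Mt2 and Mt3 at 67.6%. Over the whole transcripts the longest stretch shared by a pair was 27 bases, between Mt1 and Mt3, so no pair shared a stretch of 31 bases, and reads of one member can be told from the others.

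The promoters are shown because Mt1 and Mt2 rose in the same droplet classes and Mt3 did not in RPE-like or Müller-like droplets. Each window runs from 250 bases before to 50 bases after the RefSeq start of the gene on GRCm38.p6, and capitals mark the core of the metal response element, searched as TGCACNC or TGCGCNC on both strands.
Mt1 promoter, chr8:94178839-94179138: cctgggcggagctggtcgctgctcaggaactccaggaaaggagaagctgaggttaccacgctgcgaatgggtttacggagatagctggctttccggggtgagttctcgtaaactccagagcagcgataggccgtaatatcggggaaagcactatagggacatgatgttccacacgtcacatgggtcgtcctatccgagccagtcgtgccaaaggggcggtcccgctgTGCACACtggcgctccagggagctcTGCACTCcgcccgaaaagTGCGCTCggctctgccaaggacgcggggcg
Mt2 promoter, chr8:94172368-94172667: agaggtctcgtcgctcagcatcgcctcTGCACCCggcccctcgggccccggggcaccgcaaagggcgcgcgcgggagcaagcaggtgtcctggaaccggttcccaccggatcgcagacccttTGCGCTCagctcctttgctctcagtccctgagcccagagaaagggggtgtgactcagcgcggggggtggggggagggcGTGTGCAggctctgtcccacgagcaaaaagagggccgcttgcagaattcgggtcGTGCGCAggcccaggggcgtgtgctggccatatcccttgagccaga
Mt3 promoter, chr8:94152357-94152656: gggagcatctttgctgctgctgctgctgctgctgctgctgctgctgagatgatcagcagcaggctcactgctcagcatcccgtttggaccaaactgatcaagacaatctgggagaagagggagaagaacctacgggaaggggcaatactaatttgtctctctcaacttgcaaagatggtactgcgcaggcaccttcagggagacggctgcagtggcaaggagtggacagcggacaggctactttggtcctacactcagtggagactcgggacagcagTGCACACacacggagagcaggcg
The core matched 3 times in the Mt1 window, 4 times in the Mt2 window and 1 time in the Mt3 window. At least 1 match stood in 25.7% of the 32851 promoters of the same length, and at least 3 matches in 1.97% of them. The antioxidant response element core, searched as TGACNNNGC on both strands, matched in the Mt2 window alone among the 3, and in 12.4% of all promoters. That match holds TGACTCA, a site of the AP-1 factors, and overlaps no match of the metal response element. The STAT site TTCNNNGAA, a palindrome, matched in none of the 3 windows and in 8.30% of all promoters. A match is a stretch of letters and not a measured binding site, and sequence outside these windows was not searched. GENCODE also lists shorter transcripts of each gene that start downstream of its window. The stretch from the window to the start codon, at 94179311 in Mt1, 94172848 in Mt2 and 94152800 in Mt3, was not searched. A match absent from a window may lie there.

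RPE-like droplets carried the highest level of each gene in both libraries. They were 4.25% of all kept control droplets, the unnamed ones included, and held 90.2% of the Mt1, 91.1% of the Mt2 and 98.0% of the Mt3 UMIs of those droplets. After light damage they were 5.24% of kept droplets with 74.1% of the Mt1, 75.6% of the Mt2 and 96.7% of the Mt3 UMIs. The Mt1 share of Müller-like droplets was 1.51% in the control and 10.9% after light damage, and that of high-unspliced rods 0.565% and 8.85%.

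**Figure D1:**
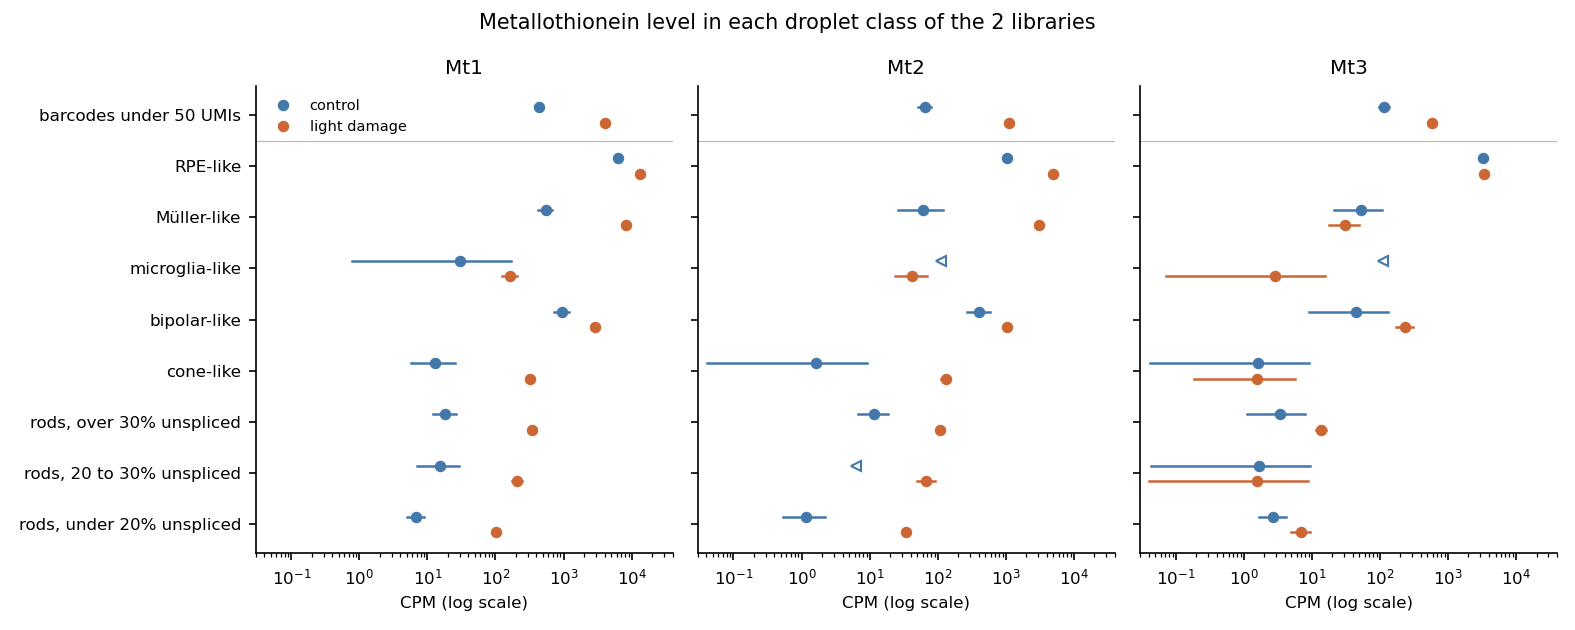
Level of Mt1, Mt2 and Mt3 in each droplet class and in barcodes under 50 UMIs, as CPM on a log axis, for the control (blue) and light damage (orange) library. Points are the CPM of the summed UMIs, bars the 95% Poisson interval for counting error and open triangles the upper end of that interval where no UMI was counted. RPE-like droplets stood highest in all 3 panels.

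In RPE-like droplets Mt1 stood at 6255 CPM in the control (95% interval 6069.6 to 6444.5, 4311 UMIs in 156 droplets) and at 13062 CPM after light damage (12916 to 13208, 30815 UMIs in 293 droplets). This was 2.09-fold higher, a log2 ratio of 1.06 (1.02 to 1.11). Mt2 moved further, from 1039 CPM (964 to 1118, 716 UMIs) to 4862 CPM (4774 to 4952, 11471 UMIs), 4.68-fold or a log2 ratio of 2.23 (2.12 to 2.34). Mt3 stood at 3259 CPM (3125 to 3396, 2246 UMIs) and 3373 CPM (3299 to 3448, 7957 UMIs), with a log2 ratio of 0.05 (-0.02 to 0.12). A gene is called past 2-fold here where its whole interval lies beyond 2-fold, and Mt1 and Mt2 were past it in RPE-like droplets, where 2.39% of the 10298 genes with at least 10 UMIs were past it upwards and 0.903% downwards. The ratio of Mt2 exceeded that of Mt1 by 1.16 on the log2 scale (1.05 to 1.28), and the ratio of Mt1 exceeded that of Mt3 by 1.01 (0.93 to 1.09). The call for Mt1 lies near its limit and was lost in 3 alternatives, when the UMIs expected from free RNA were subtracted (0.99, 0.946 to 1.04), when droplets of 50% free RNA or more were left out (1.05, 0.999 to 1.09) and when droplets were named by their own markers (1.03, 0.988 to 1.08). The RPE-like droplets had a median of 2674.5 UMIs in the control and 6019 after light damage.

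Single RPE-like droplets spread widely around these sums. Mt1 ran from 0 through a median of 4791 to 14706 CPM in control droplets and from 132 through 9259 to 42333 CPM in light damage droplets. Mt2 ran from 0 through 749 to 5574 CPM and from 0 through 3269 to 15168 CPM. Both genes were shifted upwards over most of the range while the libraries overlapped. Mt3 ran from 0 through 2612 to 8245 CPM and from 0 through 2707 to 8755 CPM, and its curves lay on each other. With every droplet thinned to 1500 UMIs, an Mt2 UMI was found in 63.0% of control and 88.4% of light damage RPE-like droplets, against 75.6% and 97.3% before thinning. Thinning left out 2 control RPE-like droplets and no other RPE-like or Müller-like one. Over single thinned RPE-like droplets, which share a library and a depth, the Spearman rho of Mt1 and Mt2 was 0.13 in the control (n = 154), where Mt2 UMIs were few, and 0.61 after light damage (n = 293). For Mt1 and Mt3 it was 0.29 and 0.45.

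**Figure D2:**
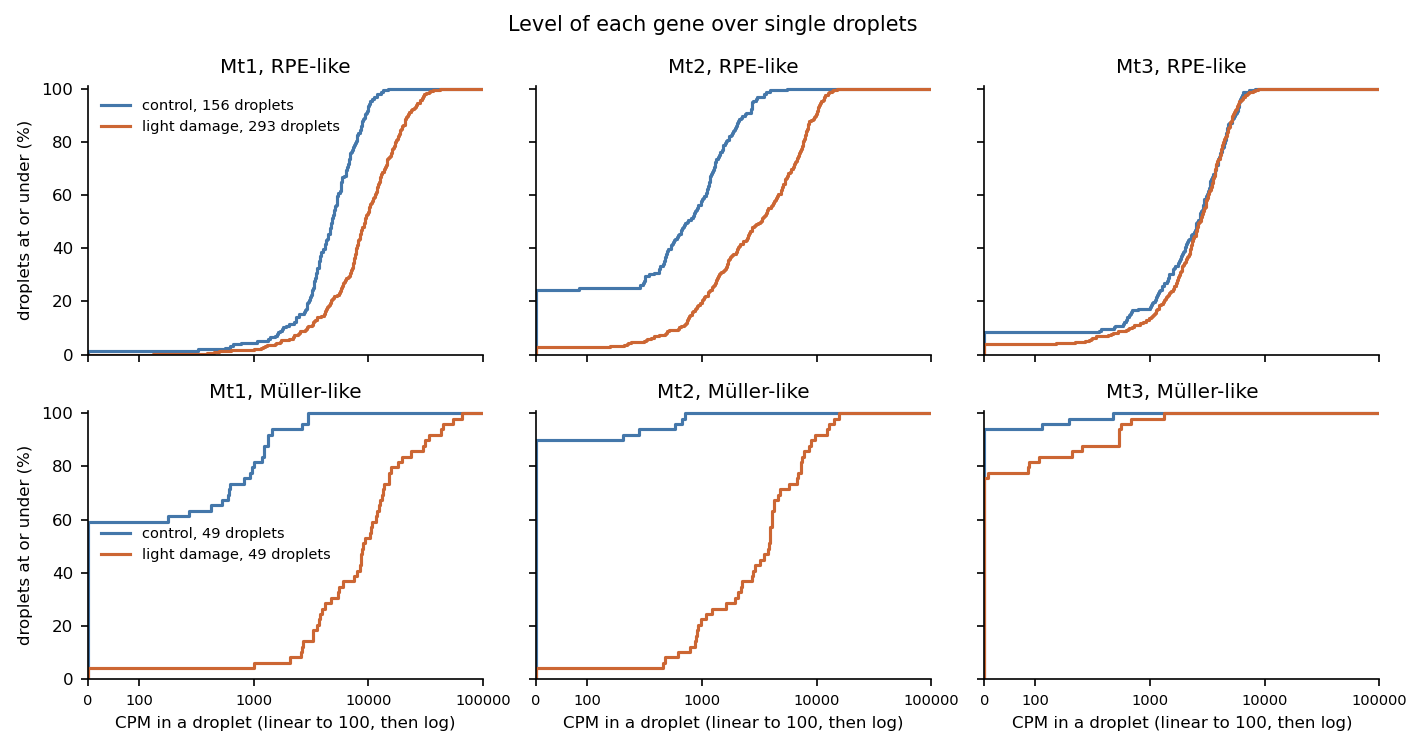
Cumulative share of RPE-like (top) and Müller-like (bottom) droplets at or under a given CPM of Mt1, Mt2 or Mt3, with an x axis linear to 100 CPM and logarithmic above it. The light damage curves (orange) lie to the right of the control curves (blue) for Mt1 and Mt2, with medians of 4791 and 9259 CPM for Mt1 in RPE-like droplets, and close to them for Mt3.

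In Müller-like droplets Mt1 and Mt2 went from near the free RNA to levels within 1.58-fold of those of RPE-like droplets, while Mt3 stayed low. Mt1 stood at 545 CPM in the control (427 to 687, 72 UMIs in 49 droplets), which overlapped the level in barcodes under 50 UMIs (437 CPM, 401 to 475). After light damage it stood at 8283 CPM (8044 to 8527, 4544 UMIs in 49 droplets), above the 4129 CPM (4051 to 4209) of the free RNA of that library. The log2 ratio was 3.93 (3.59 to 4.28), or 15.2-fold. Mt2 stood at 60.6 CPM (26.2 to 119, 8 UMIs) and then at 3092 CPM (2946 to 3242, 1696 UMIs), with a log2 ratio of 5.67 (4.69 to 6.89). Mt3 gave 7 and 17 UMIs, or 53.0 CPM (21.3 to 109) and 30.99 CPM (18.1 to 49.6), with a log2 ratio of -0.77 (-2.12 to 0.74). Mt1 and Mt2 were past 2-fold in Müller-like droplets, where 2.86% of 8641 genes were past it upwards and 3.47% downwards. The level of Mt1 in RPE-like droplets was 11.5-fold that of Müller-like droplets in the control (9.09 to 14.7) and 1.58-fold after light damage (1.53 to 1.63). The log2 ratio of Mt1 in RPE-like droplets was below that in Müller-like droplets by 2.86 (interval of the difference -3.20 to -2.52), and that of Mt2 by 3.45 (-4.45 to -2.44).

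Other values moved with the Müller-like result. The estimated share of free RNA, from rod markers, was 30.4% in control and 42.7% in light damage Müller-like droplets, and the Mt1 UMIs counted were 4.11 and 4.70 times those expected from it. For Mt3 after light damage 17 UMIs were counted where 134 were expected, 0.126 times. The estimate from rod markers thus lay far above a count that free RNA should be part of, and it is not a reliable measure in this class. The factors for Mt1, and the alternatives that use this estimate in Müller-like droplets, share that limit. The summed Müller markers stood at 18559 CPM in the control and 6114 CPM after light damage. All 49 control droplets came from 1 cluster, led by Aqp4 and Abca8a, which gave 23 light damage droplets, and the other 26 light damage droplets came from a cluster led by Cp, Tnfaip6 and Slc7a11 with no control droplets among the Müller-like ones. Mt1 stood at 5223 CPM (4933 to 5525) in the former light damage droplets and at 10536 CPM (10181 to 10901) in the latter, log2 ratios to the control of 3.26 (2.92 to 3.62) and 4.27 (3.94 to 4.63). Mt2 stood at 1711 and 4108 CPM. Both clusters were above the control. The 23 light damage droplets of the shared cluster held rod markers at 47420 CPM (control 18422), cone markers at 2184 CPM (control 22.7) and Müller markers at 2218 CPM, and the 26 of the other cluster held them at 4007, 12.7 and 8982 CPM. Over both, cone markers went from 22.7 to 933 CPM and astrocyte markers from 30.3 to 266 CPM. Endothelial markers stood at 1302 CPM in the control and 1247 CPM after light damage, and pericyte markers at 341 and 47.4 CPM. After light damage endothelial markers stood at 284 CPM in the shared cluster and at 1956 CPM in the other. The part of these markers, of cluster makeup and of depth (a median of 2475 control and 14934 light damage UMIs) in the metallothionein values was not tested.

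Over single Müller-like droplets Mt1 ran from 0 through a median of 0 to 2991 CPM in the control and from 0 through 9011 to 64758 CPM after light damage. An Mt1 UMI was found in 40.8% and 95.9% of droplets, and in 26.5% and 93.9% when thinned to 1500 UMIs. After light damage 47 of 49 droplets held 5 or more Mt1 UMIs, and the 5 droplets with the most held 23.5% of them. The Spearman rho of Mt1 and Mt2 over thinned droplets was 0.24 in the control, where 3 of 49 held an Mt2 UMI, and 0.77 after light damage (n = 49).

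**Figure D3:**
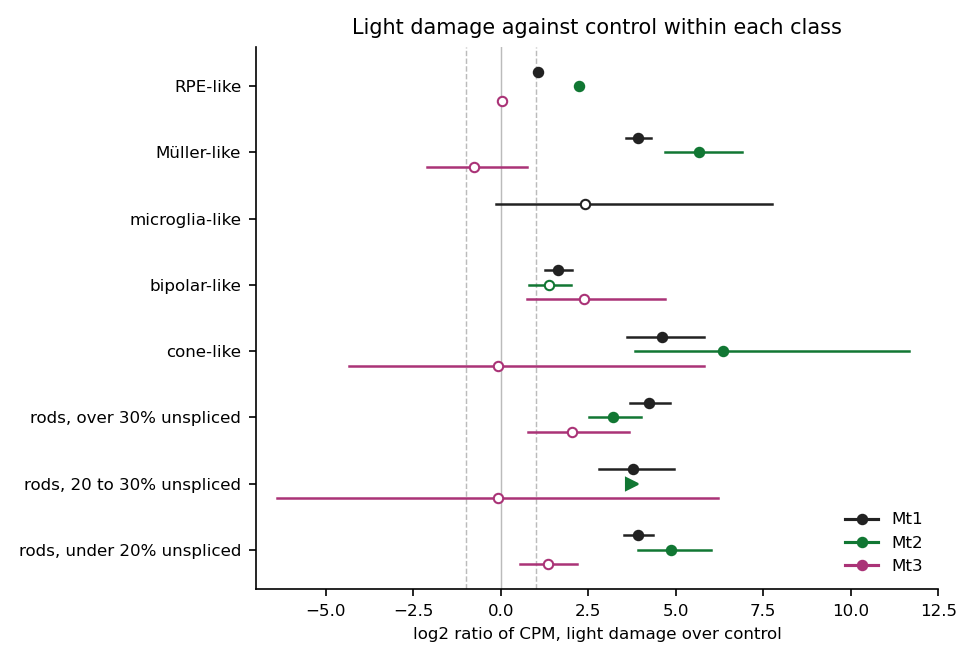
Log2 ratio of light damage to control for Mt1, Mt2 and Mt3 in each droplet class, with the 95% interval for counting error. Filled points are past 2-fold, open points are not, triangles are bounds against 3 UMIs, and dashed lines mark 2-fold. Mt1 and Mt2 lie to the right in every class with enough UMIs, between 1.06 in RPE-like and 6.34 in cone-like droplets where past 2-fold, and Mt3 lies at 0.05 in RPE-like droplets.

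Rods carried Mt1 and Mt2 at levels far below RPE-like droplets in both libraries and below the free RNA. In low-unspliced rods Mt1 stood at 6.73 CPM in the control (5.03 to 8.83, 52 UMIs in 2342 droplets) and at 102 CPM after light damage (94.5 to 111, 637 UMIs in 1771 droplets), a log2 ratio of 3.93 (3.52 to 4.36). Mt2 stood at 1.17 CPM (9 UMIs) and 33.9 CPM (211 UMIs), a log2 ratio of 4.86 (3.91 to 6.01). Mt3 stood at 2.72 CPM (21 UMIs) and 6.91 CPM (43 UMIs), a log2 ratio of 1.34 (0.56 to 2.17) that was not past 2-fold. Mt1 and Mt2 were past 2-fold in low-unspliced rods, where 1.58% of 10853 genes were past it upwards and 0.24% downwards.

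In high-unspliced rods Mt1 stood at 18.3 CPM (12.1 to 26.6, 27 UMIs) in the control and 347 CPM (336 to 358, 3681 UMIs) after light damage, a log2 ratio of 4.24 (3.70 to 4.85). Mt2 stood at 11.5 CPM (17 UMIs) and 107 CPM (1135 UMIs), a log2 ratio of 3.21 (2.53 to 4.00). Of the 17 control Mt2 UMIs 15 came from 1 droplet, and without it the log2 ratio was 6.28. Mt3 stood at 3.39 CPM (5 UMIs) and 13.8 CPM (147 UMIs), a log2 ratio of 2.03 (0.78 to 3.67) that was not past 2-fold. Mt1 and Mt2 were past 2-fold in high-unspliced rods, where 1.53% of 13353 genes were past it upwards and 0.786% downwards. In the intermediate rods Mt1 gave 9 and 131 UMIs with a log2 ratio of 3.77 (2.81 to 4.94), past 2-fold beside 1.28% of genes upwards and 0.213% downwards, and Mt2 gave 0 and 43 UMIs, at least 13.5-fold higher. Mt3 gave 1 UMI in each. Red blood cell markers stood at 10488 CPM in the intermediate rods of the light damage library.

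The rod levels have to be read beside the free RNA, whose Mt1 level was itself 437 CPM in the control and 4129 CPM after light damage. By RPE markers, free RNA made up 0.878% and 0.544% of the UMIs of low-unspliced rods and 2.85% and 1.08% of those of high-unspliced rods. After light damage the Mt1 UMIs counted were 4.56 times those expected from it in low-unspliced rods (637 against 140) and 7.78 times in high-unspliced rods (3681 against 473). For Mt2 the factors were 5.52 and 8.77 and for Mt3 2.21 and 2.23. In the control they were 1.76 and 1.47 for Mt1. An Mt1 UMI was found in 1.79% of control and 18.5% of light damage low-unspliced rods, and in 0.913% and 9.99% with droplets thinned to 1500 UMIs, which left out 41 control droplets. In high-unspliced rods the thinned shares were 1.60% and 17.2%, with 10 control droplets left out. The Mt1 counts of microglia-like droplets did not exceed the free RNA estimate. Their thinned share after light damage was 12.8% (4.30 to 27.4) at an estimated free RNA share of 7.85%. The thinned shares of both rod groups lay under the upper end of that interval. The microglia-like share rests on 5 of 39 droplets, with a larger free RNA estimate than that of the rods, so nothing is read from this comparison. The number of Mt1 UMIs in light-damaged rods exceeded the free RNA estimate from RPE markers.

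Rods with many Mt1 UMIs more often held UMIs of other cell types. Of the 3098 high-unspliced rods after light damage 1919 held no Mt1 UMI, 508 held 1 and 209 held 5 or more, and these 209 held 53.2% of the Mt1 UMIs, with the other 46.8% in the 970 droplets with 1 to 4. A UMI of a Müller glia marker was found in 59.8% of those 209 droplets (52.8 to 66.5), in 25.1% of those 970 droplets and in 14.5% of the 1919 droplets without Mt1. For RPE markers the shares were 39.2%, 30.4% and 24.8%. The depth moved along, with medians of 8778, 6601 and 5667 UMIs. Relative to all UMIs of these droplets, the summed Müller markers stood at 266, 106 and 67.5 CPM. The summed RPE markers stood at 336, 113 and 105 CPM, so depth alone does not give the difference. In low-unspliced rods after light damage the 23 droplets with 5 or more Mt1 UMIs held 29.2% of them and the 304 droplets with 1 to 4 held 70.8%. A Müller marker was found in 43.5%, 16.1% and 6.58% of the droplets with 5 or more, 1 to 4 and no Mt1 UMIs. The summed Müller markers stood at 108, 50.3 and 29.8 CPM. The shares with an RPE marker were 21.7% (7.46 to 43.7), 16.8% and 18.8% there, and the summed RPE markers stood at 25.6, 56.6 and 73.3 CPM, so RPE markers did not rise with Mt1 in low-unspliced rods. When all rods with any UMI of an RPE or Müller glia marker were left out, a restriction added after these values were seen, the log2 ratio of Mt1 was 3.85 in low-unspliced and 3.62 in high-unspliced rods and that of Mt2 in high-unspliced rods 2.24. The last value rests on 15 control UMIs, all from the 1 droplet named above, so it does not show a smaller ratio. RNA of these cell types in or on rod droplets below the detection of the markers was not tested.

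Within the light damage library, high-unspliced rods had the higher levels of Mt1 and Mt2. There Mt1 was 3.39-fold higher than in low-unspliced rods, a log2 ratio of 1.76 (1.64 to 1.88), and Mt2 was 3.16-fold higher, 1.66 (1.44 to 1.88). Mt3 differed by 1.00 (0.50 to 1.53). In the control no direction held: the log2 ratio of Mt1 was 1.44 (0.71 to 2.14) but -0.99 with droplets named by their own markers. With that naming the low-unspliced control rods held 273 Mt1 UMIs, against 52 in the main naming. Whether the control droplet of the cone cluster with 205 Mt1 UMIs, given below, was among them was not tested. The log2 ratio of Mt2 was 3.31 (2.06 to 4.65) with the droplet of 15 UMIs and 0.59 (-2.72 to 2.98) without it, and that of Mt3 was 0.32 (-1.45 to 1.76). In this comparison 26.9% of genes in the control and 27.3% after light damage were past 2-fold upwards, 3.03% and 3.18% downwards, and the median gene after light damage was at 0.48. With the unspliced UMIs added to the totals and counts the log2 ratios after light damage were 0.76 for Mt1, 0.66 for Mt2 and 0.00 for Mt3, none past 2-fold. Centred on the median gene they were 1.28 for Mt1, still past 2-fold, and 1.18 (0.965 to 1.40) for Mt2, which was not.

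Cone-like droplets, the second kind of photoreceptor, gave 8 Mt1 UMIs in the control (13.1 CPM, 5.65 to 25.8) and 408 after light damage (316 CPM, 286 to 348), a log2 ratio of 4.59 (3.60 to 5.82). Mt2 gave 1 and 171 UMIs, or 1.64 and 132 CPM, a log2 ratio of 6.34 (3.84 to 11.65). Mt3 gave 1 and 2 UMIs, 0.613 times those expected from free RNA after light damage. Mt1 and Mt2 were past 2-fold, beside 2.7% of 9882 genes upwards and 0.779% downwards. The counts after light damage were 17.4 times those expected from free RNA for Mt1 and 26.7 times for Mt2. The 93 light damage droplets were deep, with a median of 14848 UMIs against 2732, and 16 of them held 83.8% of the Mt1 UMIs and a Müller marker in 81.2% of cases. Without droplets holding an RPE or Müller marker the log2 ratio of Mt1 was 2.49 (1.25 to 3.93, 7 and 27 UMIs), still past 2-fold. The result rests on the requirement of 3 cone markers in each droplet: of the 40 control droplets of the cone cluster that failed it, 1 held 205 Mt1 UMIs, and with the cluster name alone the log2 ratio was 0.06 (-0.18 to 0.31).

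Bipolar-like droplets, interneurons that take the photoreceptor signal, were few and had Mt1 at 941 CPM in the control (723 to 1204, 63 UMIs in 26 droplets), above the Müller-like level, and at 2917 CPM after light damage (2684 to 3165, 578 UMIs in 18 droplets). The log2 ratio of 1.63 (1.26 to 2.03) was past 2-fold, beside 0.709% of 5221 genes upwards and 0.632% downwards, and fell under the limit, at 1.49 (0.553 to 2.54), when droplets with RPE or Müller markers were left out. Mt2 stood at 403 and 1049.6 CPM and was not past 2-fold (1.38, 0.80 to 2.02). Without those droplets it stood at 4.38 (1.79 to 9.73), a value that rests on 1 control UMI and 29 light damage UMIs. Mt3 gave 3 and 46 UMIs and was not past it either (2.37, 0.74 to 4.70). Bipolar-like droplets had the highest Mt3 level outside RPE-like droplets and free RNA after light damage, 232 CPM (169.95 to 310). Of these 46 UMIs 16 came from 1 droplet. Without droplets holding RPE or Müller markers 3 light damage and 0 control Mt3 UMIs were left, so this level rests mostly on droplets with such markers. Their median depth went from 2729 to 19927 UMIs.

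Microglia-like droplets, the resident macrophages of the retina, gave no count above the free RNA estimate. Mt1 gave 1 UMI in 12 control droplets and 57 in 39 light damage droplets (162 CPM, 123 to 210), where 114 were expected from free RNA. Its log2 ratio of 2.41 (-0.13 to 7.73) was not past 2-fold, beside 1.86% of genes upwards and 3.65% downwards. Mt2 gave 0 and 15 UMIs and Mt3 0 and 1, where 31.2 and 15.9 were expected after light damage. The estimate from rod markers lay above the count of each member. It therefore cannot show whether these droplets held metallothionein RNA of their own. The free RNA share of the control microglia-like droplets was estimated at 66.9%.

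Placed in order, the levels after light damage ran for Mt1 from RPE-like over Müller-like droplets, the free RNA, bipolar-like droplets, high-unspliced rods and cones, then intermediate rods and microglia, to low-unspliced rods. The intervals of high-unspliced rods and cones overlapped, as did those of intermediate rods and microglia. For Mt2 the order was the same except that cones stood above high-unspliced rods. The intervals of the free RNA and bipolar-like droplets overlapped each other, and so did those of low-unspliced rods and microglia. For Mt3 RPE-like droplets stood first, then the free RNA, bipolar-like and Müller-like droplets and high-unspliced rods, and the intervals of the rest overlapped. The distance of RPE-like from Müller-like droplets for Mt3 was 61.5-fold in the control (29.8 to 153) and 109-fold after light damage (67.9 to 187).

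The balance between the members was compared across classes as proportions of UMIs. Each proportion sets the counts of different genes against each other, so only its differences between classes and libraries are read. Mt2 made up 14.2% of the Mt1 and Mt2 UMIs of control RPE-like droplets (13.3 to 15.2) and 27.1% after light damage (26.7 to 27.6). In Müller-like droplets it made up 10.0% (4.42 to 18.8) and 27.2% (26.1 to 28.3). After light damage the proportion was 24.9% in low-unspliced rods, 29.5% in cones and 26.5% in bipolar-like droplets, with intervals that overlapped that of RPE-like droplets. The free RNA held 13.0% (10.45 to 15.8) in the control and 21.5% (20.8 to 22.2) after light damage. The interval of low-unspliced rods overlapped that of the free RNA as well. High-unspliced rods held 23.6% (22.4 to 24.8) after light damage, above the interval of the free RNA and below those of RPE-like and Müller-like droplets. High-unspliced rods held 38.6% (24.4 to 54.5) in the control, with 15 of 17 Mt2 UMIs from 1 droplet. Bipolar-like droplets held 30.0% (20.8 to 40.6) in the control already. The rise in the Mt2 proportion was beyond counting error in RPE-like and Müller-like droplets and in the free RNA.

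Mt3 made up 34.3% of the Mt1 and Mt3 UMIs of control RPE-like droplets and 20.5% after light damage. In Müller-like droplets it fell from 8.86% to 0.373% and in cones it was 0.488% after light damage. Low-unspliced rods had 28.8% in the control and 6.32% after light damage, beside 20.7% and 12.2% in the free RNA.

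**Figure D4:**
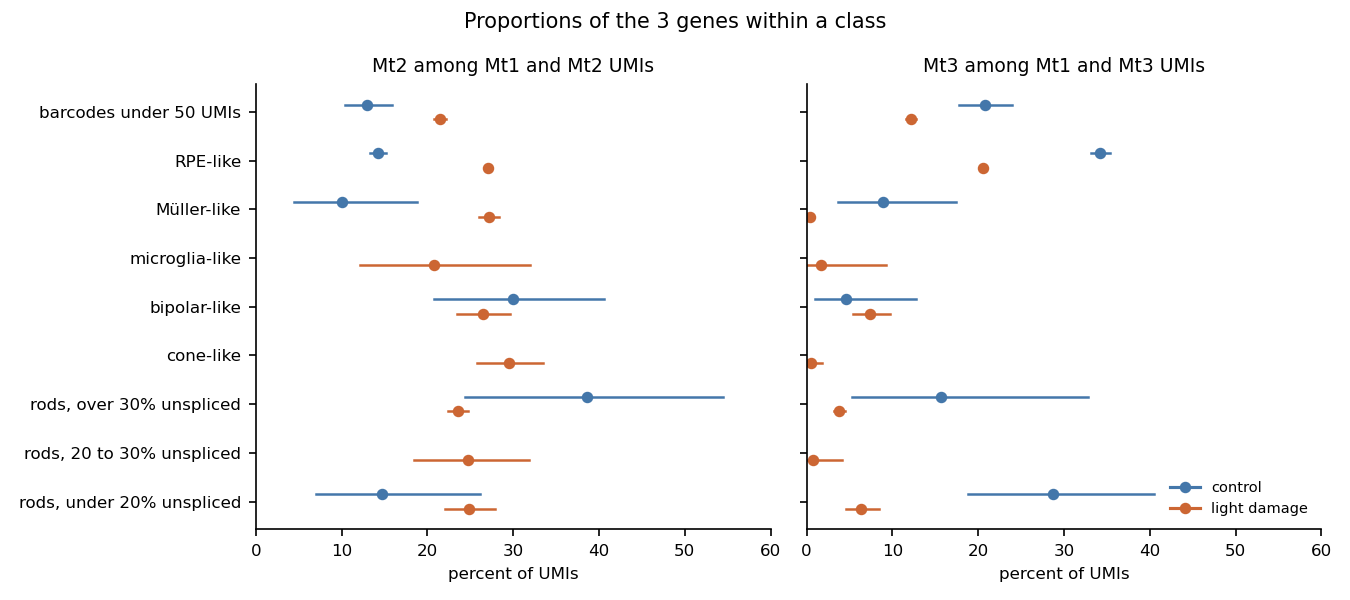
Proportion of Mt2 among Mt1 and Mt2 UMIs (left) and of Mt3 among Mt1 and Mt3 UMIs (right) by class and library, in percent with 95% binomial intervals, for classes with at least 20 such UMIs. After light damage (orange) the Mt2 proportion lay at 27.1% in RPE-like and 27.2% in Müller-like droplets, while the Mt3 proportion differed widely between classes.

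Few genes that handle zinc and copper were past 2-fold, which is also the case for genes in general. Of 35 genes, namely the zinc sensor Mtf1, the zinc exporters of the Slc30 and importers of the Slc39 family and a set of copper handling genes, 27 were tested in RPE-like droplets and none was past 2-fold in either direction, beside 2.39% and 0.903% of all genes, with a median log2 ratio of 0.05 beside 0.00 for all genes. None of 26 was past 2-fold in low-unspliced rods (median 0.09 beside 0.18), none of 26 in high-unspliced rods (-0.17 beside 0.00), none of 24 in intermediate rods, none of 25 in cones and none of 23 in Müller-like droplets (0.06 beside 0.02). Over these classes 1.28% to 2.86% of all genes were past it upwards and 0.213% to 3.47% downwards. In microglia-like droplets 1 of 19 was lower, the copper protein Commd1, beside 3.65% of all genes downwards. In bipolar-like droplets 1 of 10 was higher, the zinc importer Slc39a10, at least 3.38-fold, beside 0.709% of all genes upwards. No class had more than 1 such gene, and nothing is read from these counts. Mtf1, the zinc exporter Slc30a1, itself a known target of Mtf1, and the copper pump Atp7a were singled out with their values seen. In RPE-like droplets Mtf1 gave 7 and 38 UMIs, a log2 ratio of 0.67 (-0.52 to 2.07), and Slc30a1 gave 43 and 83 UMIs, a log2 ratio of -0.83 (-1.37 to -0.26). Atp7a gave 55 and 426 UMIs there, 2.26-fold (1.71 to 3.05). In Müller-like droplets Slc30a1 gave 9 and 14 UMIs, a log2 ratio of -1.42 (-2.73 to -0.03). Its log2 ratio was 0.30 (-0.04 to 0.64) in low-unspliced rods and -0.26 (-0.70 to 0.21) in high-unspliced rods. In cones it was 0.27 (-0.70 to 1.32).

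Genes of cytokine signalling through gp130 and Stat3 were past 2-fold upwards in most classes. Of 7 tested genes 4 were higher in RPE-like droplets (2.39% of all genes) and 4 in Müller-like droplets (2.86%). The same number was higher in low-unspliced rods (1.58%) and in high-unspliced rods (1.53%). In cones (2.7%) and in intermediate rods (1.28%) 3 of 6 were higher, in microglia-like droplets 1 of 6 (1.86%) and in bipolar-like droplets 1 of 3 (0.709%). Stat3, which carries the signal to the nucleus, had log2 ratios of 2.53 in RPE-like, 2.20 in Müller-like and 3.03 in cone-like droplets and 3.23 in low-unspliced rods. Socs3, the feedback inhibitor of the pathway, had 6.18 in RPE-like and 3.88 in Müller-like droplets. Osmr, the receptor of oncostatin M, had 3.38 in RPE-like droplets (155 and 5525 UMIs) and 1.91 in Müller-like droplets.

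Of 8 oxidative stress genes 4 were past 2-fold upwards in Müller-like droplets (2.86% of all genes), 1 in RPE-like droplets (2.39%) and 2 in microglia-like droplets (1.86%), and none was past it downwards. None of those tested was past 2-fold in rods, cones or bipolar-like droplets, and the classes were not compared by a test. In Müller-like droplets Slc7a11, the cystine importer, had a log2 ratio of 6.05 and Txnrd1, a thioredoxin reductase, 3.12, while Srxn1 was at least 16.5-fold and Hmox1, the haem-degrading enzyme, at least 8.59-fold higher. Slc7a11 is also a leading gene of 1 of the 2 Müller-like clusters. Hmox1 had 4.34 in RPE-like droplets. Of 7 glucocorticoid response genes 6 were tested in RPE-like droplets, where Sgk1 was lower, at -1.85, beside 0.903% of all genes downwards. In intermediate rods 6 were tested and Per1 was higher, at 2.79, beside 1.28% of all genes upwards. None was past 2-fold in the other classes. No gene of these lists is a member, and no link to the metallothioneins was tested.

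**Figure D5:**
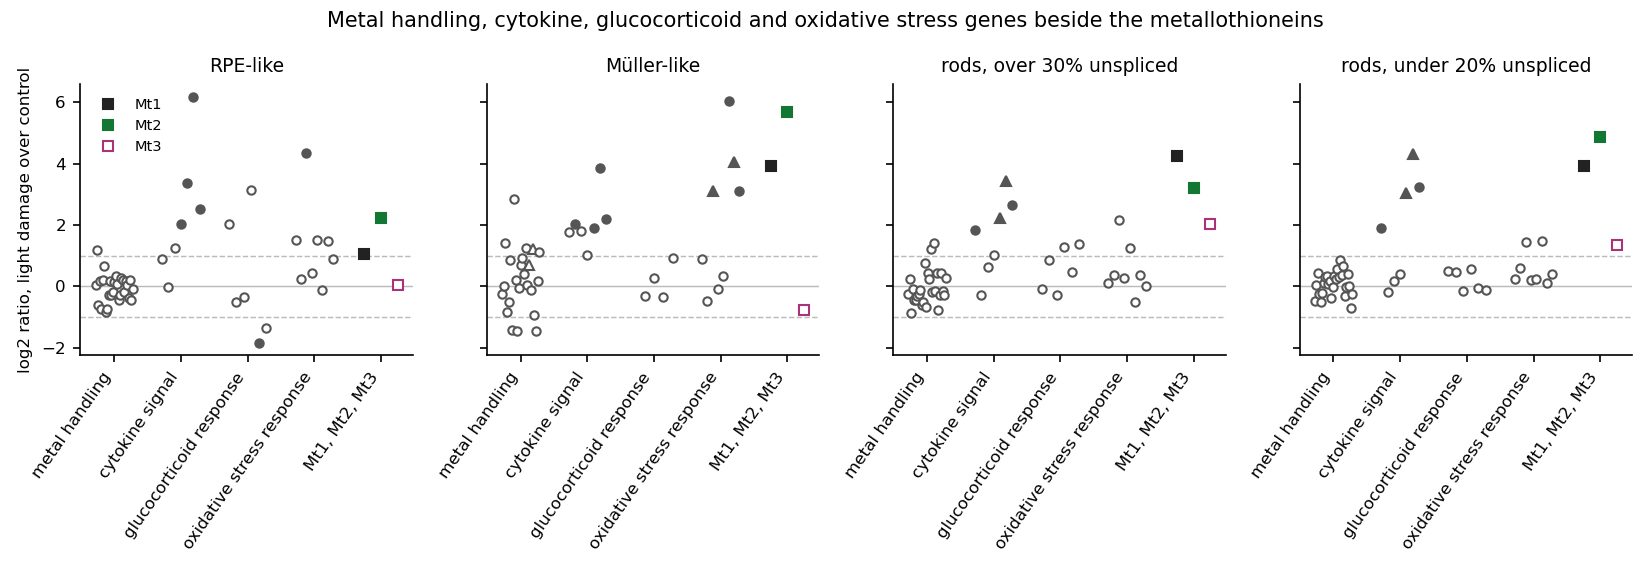
Log2 ratio of light damage to control for each tested gene of the metal handling, cytokine signal, oxidative stress and glucocorticoid lists, by droplet class. Filled points are past 2-fold and triangles are bounds against 3 UMIs where the control had none, with bounds under 1-fold not drawn. The metal handling genes lie around 0, with none of 27 past 2-fold in RPE-like droplets, and the cytokine genes reach 6.18 there.

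Over the 16 sums of class and library, the log2 CPM of Mt1 and Mt2 went together with a Pearson r of 0.98, and Mt3 with Mt1 at 0.81 and with Mt2 at 0.78. Among 9970 genes those most like Mt1 were Lrp8, Mras, Cnn3, Amotl1 and Ano10, with r from 0.879 to 0.896, and those most like Mt2 were Lrp8, Mras, Bcar1, Ano10 and Amotl1, with r from 0.862 to 0.895. Those most like Mt3 were Jakmip2, Ptgds, Ltbp3, Sgk3 and Igfbp7, with r from 0.938 to 0.951. The sums share libraries, depth and free RNA, so these values only describe the likeness of the patterns, and the lists of Mt1 and Mt2 share 4 genes.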

How the data were processed

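The libraries were made by the authors with 10x Genomics 3′ v3.1 chemistry after enzymatic digestion and dead-cell removal. Per the labels and methods, reads were mapped with Salmon 1.10.1 and Alevin-fry 0.8.1, and the deposited files hold raw UMI counts per barcode and gene as spliced, unspliced and ambiguous blocks, with no cell calling. Cell Ranger 7.0.1 is also named in the submitters' processing notes. A 3′ count does not depend on transcript length and gives no isoform.

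Member counts are spliced plus ambiguous UMIs, matched by Ensembl identifier to GENCODE vM21. Droplets were kept above the inflection of their library's barcode ranks (1464 and 1614 UMIs, with a floor of 500) and under 10% mitochondrial UMIs. Scrublet scores removed 0.8% per 1000 droplets (114 and 276 droplets). Kept droplets had a median of 2848 and 4480 UMIs. Leiden clustering (resolution 1, scanpy 1.11.5, leidenalg 0.10.2) gave 13 clusters, named "like" a cell type from marker lists, and each droplet had to show 3 markers of its type. The score limits and this requirement were set after the data were seen. It left out 19 of 68 control and 147 of 196 light damage droplets of the Müller clusters. Because the types are rebuilt here, their membership can differ from that of the study.

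Levels carry exact Poisson, shares exact binomial and log2 ratios exact conditional binomial 95% intervals, for counting error only, and differences of log2 ratios a Wald interval. UMIs are molecules, but droplets of 1 pool are not replicates, so no p-value is given. The call past 2-fold needs 10 UMIs over both groups, and a fold against 0 is a bound against 3 UMIs. The free RNA share of a class compares markers of other cell types with barcodes under 50 UMIs. The likeness used log2(CPM + 10) over genes with at least 200 UMIs. Named genes were the members, the 5 genes most like each, and list genes past 2-fold, up to the 6 farthest from 0. Alternatives were a minimum of 1000 UMIs, 5% mitochondrial UMIs, no doublet removal, free RNA subtracted, droplets with 50% free RNA left out, unspliced UMIs added, naming by single droplets, resolution 2, rod limits of 15% and 35%, 50 UMIs per gene, centring and leaving out 1 droplet. The intervals were tested on simulated counts. The members and lists were chosen with earlier results of these data known. Python 3.11.15, numpy 2.4.6, scipy 1.17.1 and pandas 2.3.3 were used.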

Additional observations from a re-analysis of the deposited data

Results flagged for a closer look

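Unspliced UMIs of Mt2, which no comparison above uses, numbered 34 in the light damage library and 0 in the control. Of the 27 that lay in kept droplets 23 were in Müller-like droplets, 3 in high-unspliced rods and 1 in an RPE-like droplet. Mt1 had no unspliced UMI in either library. Mt4, the fourth gene of the cluster, which is not among the members, had 4 spliced and ambiguous UMIs in the light damage library and 0 in the control.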

How the results depend on the processing

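No ratio turned its sign where it had been past 2-fold. Of 154 repeats of the light damage ratios of the members in RPE-like and Müller-like droplets and low-unspliced and high-unspliced rods 142 stayed within the counting interval. In RPE-like droplets Mt1 stood at 1.12 with no doublets left out, 0.99 with free RNA subtracted and 1.17 centred on the median gene, and Mt3 at 0.15 centred. Mt1 was past 2-fold in 10 and Mt2 in 13 of 13 alternatives. In Müller-like droplets Mt1 was 4.54 without droplets of 50% free RNA or more, and Mt3 0.80 without its richest droplet. In low-unspliced rods Mt1 was 4.80 with free RNA subtracted and 1.81 with droplets named by their own markers (273 control and 784 light damage UMIs). In high-unspliced rods Mt1 was 5.60 with free RNA subtracted and 3.62 without droplets holding RPE or Müller markers, and Mt2 6.28 without its richest control droplet and 2.24 without the marker-holding ones, where all 15 control UMIs are of that droplet. For high-unspliced against low-unspliced rods of the control, Mt1 was 0.24 with unspliced UMIs added and -0.99 with droplets named by their own markers, and Mt2 0.59 without its richest droplet. After light damage Mt1 was 1.49 at 1000 UMIs, 1.51 at 5% mitochondrial UMIs, 1.5005 with doublets kept, 1.93 with free RNA subtracted, 0.76 with unspliced UMIs added, 1.54 at resolution 2 and 1.28 centred. Mt2 was 1.36 at 1000 UMIs, 0.66 with unspliced UMIs added and 1.18 centred, and Mt3 0.44 at 5% mitochondrial UMIs, 0.00067 with unspliced UMIs added and 0.38 with own markers. Of the metal handling genes 1 was higher in Müller-like droplets without those of 50% free RNA, with unspliced UMIs added or centred, 1 lower with free RNA subtracted, 0 lower in microglia-like droplets under 7 alternatives, and 0 higher in bipolar-like droplets at 50 UMIs per gene. The cause of each shift was not tested. The alternatives with cluster names alone and without RPE or Müller markers were chosen after seeing the data. In 16 cases (11 of Mt3, 4 of Mt1 in microglia-like droplets and 1 of Mt2 in cones) an alternative left 0 UMIs in at least 1 of the groups compared and gave no ratio. No paired analysis was possible because each condition has 1 library.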

Other observations

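Among the rod clusters of the light damage library, Mt1 stood lowest in the pair with few unspliced UMIs, at 111 and 109 CPM, and higher in those led by Mir124a-1hg (274 CPM), Jun (384 CPM, 367 to 402, 1041 droplets) and Egr1 (497 CPM, 437 to 564, 229 droplets). The cluster led by Xist had 50 light damage droplets, with Mt1 at 358 CPM, and 624 control droplets, with Mt1 at 13.5 CPM. Mt2 stood at 38.1 and 32.5 CPM in the first pair, at 93.0, 113 and 116 CPM in the clusters led by Mir124a-1hg, Jun and Egr1, and at 71.6 CPM in that led by Xist. The Jun-led and Egr1-led clusters held fewer than 10 control droplets, so no control level is given for them. These clusters were formed from the same counts, and their values are a description.

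In barcodes of the light damage library with 500 UMIs up to the minimum for kept droplets, Mt1 stood at 1258 CPM, below the 4129 CPM of the barcodes under 50 UMIs. In the control it stood at 339 and 437 CPM. Mt3 stood at 164 CPM and 90.4 CPM in these larger barcodes of the control and light damage library.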
